A study of Rattus norvegicus with 4 samples.

Results

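Cathepsins are the proteases of the lysosome, and 9 cathepsin genes were read by 13 probes of the array: Ctsa, Ctsb, Ctsc, Ctsd, Ctsh, Ctsk, Ctsl, Ctss and Ctsz. They were found by gene name or RefSeq transcript (Ctsl1, 1 of 10 names searched, is an older symbol of Ctsl, and the probes of Ctsa carry its older name Ppgb), and all 9 were among the 21376 genes tested. Ctsc was singled out among them by its measured values, since it was higher after co-culture and cold jet than in either other RNA, so its differences are given as a description, with no p-value, and nothing is read from whether it passed a test. The cultures were rat cortical astrocytes of Wistar pups (P1), grown alone or with hippocampal neurons of mouse embryos (E18) plated on them. RNA came from the neuron-astrocyte co-culture (CC), from the co-culture after cold jet (CC-CJ), in which a stream of ice-cold PBS detaches the neurons, and from astrocytes kept alone under like conditions and also given cold jet (AA-CJ). Every array carried CC-CJ in Cy3, against Cy5-labelled AA-CJ on 2 of them and Cy5-labelled CC on the other two, 4 arrays in all. No dyes were swapped, so that within an array the dye and the condition cannot be told apart, while CC and AA-CJ carried the same dye. Per the methods, RNA was drawn from several wells and replicates from different pools of animals; mouse mRNA was read by probes designed for rat, and CC was not given cold jet. Between 50.3% and 62.6% of probes per channel were well above background, and M of replicate arrays correlated at 0.553 and 0.613 across all probes, which are not independent. The methods count 2 CC-CJ samples and do not say whether the arrays against CC carried the same ones. Differences in CC-CJ level between replicates 1 and 2 correlated at 0.465 over genes between the 2 sets of arrays (-0.397 for the Cy5 RNAs). On the same arrays, they correlated at 0.195 with those of AA-CJ and at 0.326 with those of CC. By the count in the methods, the 4 CC-CJ values may come from fewer than 4 separate RNAs, which was not tested.

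Most cathepsins are cysteine proteases that are made as inactive precursors, sorted to the lysosome by mannose 6-phosphate receptors and activated there at acid pH. Cathepsin D is an aspartic protease and cathepsin A a serine carboxypeptidase. Cathepsin C, also called dipeptidyl peptidase I, removes dipeptides from the amino end of other proteins and is known for activating the serine proteases of granules in immune and mast cells. In brain, cathepsins B, D and L are found in most cells, while cathepsin S is known as an enzyme of microglia and other antigen-presenting cells.

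The bases before the start of Ctsc and of Ctss are shown because these 2 genes stood at opposite ends of the family when CC-CJ was compared with CC. Both come from RefSeq (GRCr8, plus strand, the 250 bases before the start used in its table), at chr1:151440799-151441048 and chr2:185775146-185775395, and capitals mark the letters GAGGAAGT read on the opposite strand, an ETS site of the kind bound by PU.1, the myeloid factor that Spi1 encodes.
Ctsc: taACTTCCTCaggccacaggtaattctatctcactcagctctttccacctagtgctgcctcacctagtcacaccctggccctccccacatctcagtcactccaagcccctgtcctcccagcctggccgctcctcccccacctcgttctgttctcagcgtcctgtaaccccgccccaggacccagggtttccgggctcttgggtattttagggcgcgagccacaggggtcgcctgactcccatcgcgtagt
Ctss: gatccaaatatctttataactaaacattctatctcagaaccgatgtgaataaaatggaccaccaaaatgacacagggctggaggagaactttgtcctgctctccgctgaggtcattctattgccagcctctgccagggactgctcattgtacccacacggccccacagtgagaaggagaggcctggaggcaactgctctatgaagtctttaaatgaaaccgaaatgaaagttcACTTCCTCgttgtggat
The site began 248 bases before that start of Ctsc and 17 bases before that of Ctss. These were the 2 of 8 cathepsin promoters in the table that held it from 250 bases before to 50 after the start. The RefSeq gene spans begin further upstream, at 151440860 for Ctsc and 185775316 for Ctss, inside the printed stretches. Part of each stretch, and the site of Ctss, therefore lie within the gene span. The distances hold only for the start used in the table. On either strand, 2.42% of 33469 rat promoters held these letters. Of 5 other motifs searched on both strands, the GC box GGGCGG was in 6 of the 8 (Ctsa, Ctsc, Ctsd, Ctsh, Ctsl and Ctsz) and in 33.1% of all promoters. The letters TATAAA of the TATA box were in Ctss (14.2% of all), only on the opposite strand and near the upstream end of the printed stretch, far from the start. The E-box CACGTG of the CLEAR element, through which TFEB acts on lysosomal genes, was in Ctsd (6.42% of all). Its longer form TCACGTGA, which contains it, was in Ctsd too (0.777% of all). The AP-1 site TGAGTCA was in none of the 8 (4.63% of all). Ctsb has no entry in the table. A match is a description of letters and not a site shown to be bound.

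Ctsc had the highest M of the 9 cathepsins on each of the 4 arrays, where M is log2 of CC-CJ over the other RNA. Its normalized log2 level in CC-CJ was 12.81 and 13.01 on the arrays against AA-CJ and 12.87 and 13.01 on those against CC. It was 12.21 and 12.16 in AA-CJ and 12.40 and 12.21 in CC. All 4 CC-CJ values lay above all 4 values of the other RNAs, and AA-CJ and CC lay next to each other with means of 12.18 and 12.30.

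**Figure D1:**
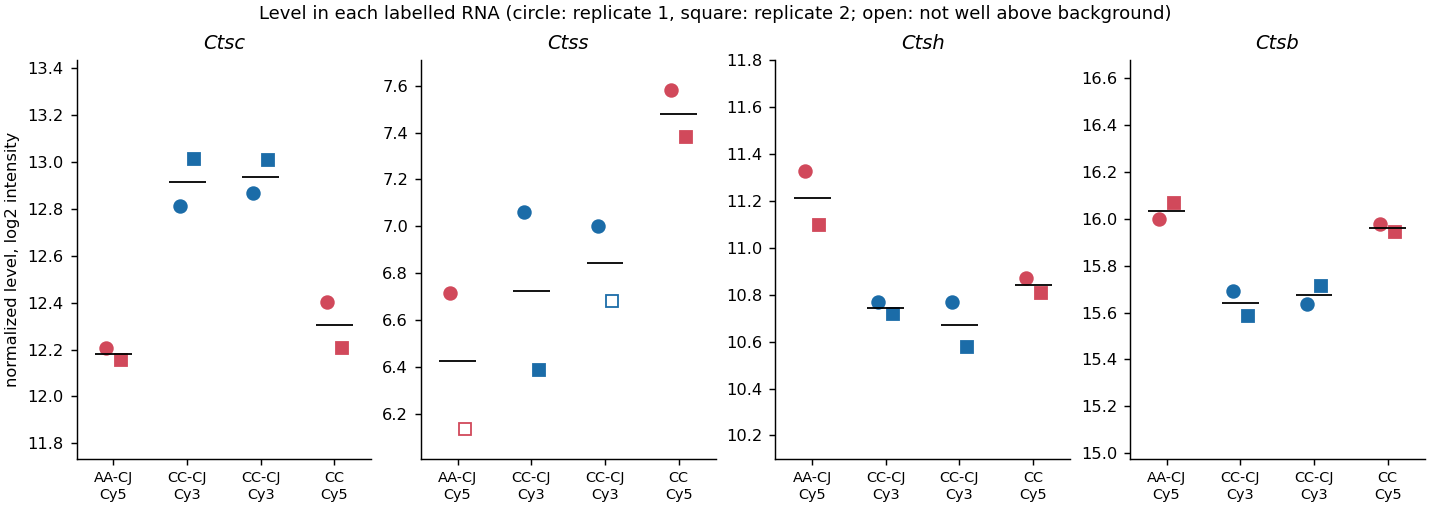
Normalized level (log2 intensity, vertical axis, the same span in each panel) of Ctsc, Ctss, Ctsh and Ctsb in each labelled RNA, with the dye under its name; the first CC-CJ column is from the arrays against AA-CJ and the second from those against CC, circles and squares are replicates 1 and 2, bars are means and open symbols are spots not well above background. Ctsc is at 12.81 to 13.01 in CC-CJ and at 12.16 to 12.40 elsewhere, while Ctss is highest in CC.

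Against AA-CJ, M of Ctsc was 0.61 and 0.86 (mean 0.73, SE 0.113, n = 2), a difference of 1.66-fold. Against CC it was 0.47 and 0.80 (mean 0.63, SE 0.113, n = 2), or 1.55-fold. Between CC and AA-CJ, which share the dye, the fitted log2 difference was 0.10 (SE 0.159), or 1.07-fold. The 2 first comparisons share the CC-CJ side and its dye. The higher level of Ctsc in CC-CJ depended on the correction for brightness: with each array centred on its median and no loess, M was -0.18 against AA-CJ and -0.03 against CC. The 516 genes within 0.5 of Ctsc in mean log2 intensity then had a median of -0.88 and -0.63, and Ctsc was 0.70 and 0.60 above them. The next highest cathepsin per array was Ctss at 0.35 and Ctsl at 0.45 against AA-CJ, and Ctsl at 0.27 and 0.48 against CC. An M at least as high as the lowest of Ctsc (0.47) on all 4 arrays was found for 7 of 21376 genes, Ctsc included. That limit was set by the values that singled out Ctsc, so nothing is read from the count. Those with a gene symbol were Ctsc, Fos and Thbs4, named here after their values were seen.

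**Figure D2:**
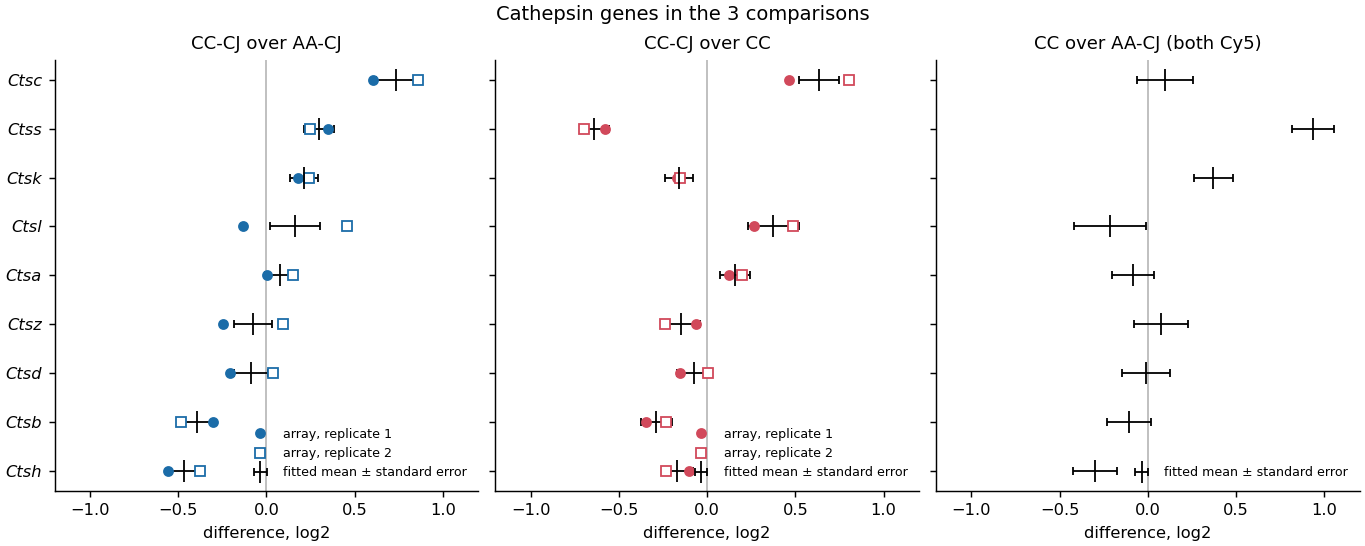
M or fitted log2 difference (horizontal axis) of the 9 cathepsin genes in CC-CJ over AA-CJ, CC-CJ over CC and CC over AA-CJ; circles and squares are the arrays of replicates 1 and 2, and black marks are fitted means ± SE. Ctsc is highest in the first and second panels at 0.73 and 0.63 and lies at 0.10 in the third, where Ctss is at 0.94.

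Among the 9 genes, limma called Ctsc higher and Ctsh lower in the comparison of CC-CJ with AA-CJ, beside 1.89% of all genes tested called higher and 1.13% called lower. In CC-CJ against CC it called Ctsc higher, beside 0.0982% of all genes, and Ctss lower, beside 2.25%. In CC against AA-CJ it called Ctss higher, beside 2.57%, and 0 cathepsins lower, beside 0.0795% (1, Ctsh, had an unadjusted p under 0.05). Called means an adjusted p of 0.05 or less over all genes. Since Ctsc was chosen by its values in both CC-CJ comparisons, nothing is read from its 2 calls, and Ctss passed the filter on dim probes through CC alone, the RNA in which it was highest, so nothing is read from its calls either. With the limits of the methods, 2 SD from the mean on both arrays, Ctsc was the cathepsin past them against AA-CJ (2.55% of all genes) and Ctsc and Ctss those past them against CC (2.26%). The medians over the 9 genes were 0.08, -0.15 and -0.01 in the 3 comparisons, beside -0.02, -0.02 and 0.00 over all genes. Of the 8 relatives of Ctsc, 4 were above 0 against AA-CJ and 2 against CC.

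Cathepsin S, an endopeptidase that stays active at neutral pH and trims the invariant chain of MHC class II, had an M of the opposite sign to Ctsc between CC-CJ and CC. The log2 level of Ctss was 7.58 and 7.38 in CC. In CC-CJ it was 7.06 and 6.39 on the arrays against AA-CJ and 7.00 and 6.68 on those against CC, and in AA-CJ 6.71 and 6.14. Both CC values lay above all others, and CC-CJ and AA-CJ overlapped. M was -0.58 and -0.70 against CC (mean -0.64, SE 0.084), and CC over AA-CJ, with the same dye on both sides, was 0.94 (SE 0.118). M against AA-CJ was 0.35 and 0.25 (mean 0.30, SE 0.084), which did not pass (limma adjusted p = 0.102). Ctss was dim: its probe was well above background in 3 of 4 CC-CJ spots, 1 of 2 of AA-CJ and 2 of 2 of CC, so that its 2 CC values decided that it was kept. A second probe of Ctss was below that mark in every channel and was left out. With it averaged in, the mean M was -0.33 against CC and 0.46 for CC over AA-CJ, and neither passed (limma adjusted p = 0.198 and 0.201 with no filter on dim probes).

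Ctsk, the collagenase of osteoclasts and the neighbour of Ctss in the genome (16.8 kb apart on chromosome 2 in GRCr8), had the same signs as Ctss with smaller values. Its M was 0.18 and 0.24 against AA-CJ (mean 0.21) and -0.17 and -0.15 against CC (mean -0.16). The difference of CC over AA-CJ was 0.37 (SE 0.112). None of these passed (limma adjusted p = 0.182, 0.363 and 0.162), and centred without loess the first turned to -0.38. The levels of Ctsk were 9.92 and 9.74 in AA-CJ, 10.30 and 10.06 in CC and 9.91 to 10.13 in CC-CJ.

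Ctsh, an aminopeptidase of the cysteine class, was the cathepsin called lower after co-culture and cold jet against astrocytes alone. Its log2 level was 11.33 and 11.10 in AA-CJ and 10.58 to 10.77 in the 4 CC-CJ values, without overlap, and 10.87 and 10.81 in CC. M was -0.56 and -0.38 (mean -0.47, SE 0.089), or 0.723 of the level in AA-CJ (limma adjusted p = 0.0477, n = 2). That call was close to the threshold: it was made under 9 of 16 alternatives, with every value below 0. Among the 9, the fit to the arrays against AA-CJ alone and those without an array against CC are the same fit. The lowest limma adjusted p, 0.000187, came without loess, where 14265 of all genes were called. With Agilent's log ratio the adjusted p of Ctsh was 0.202. Without replicate 1 of that comparison the value was -0.38 (adjusted p 0.215) and without replicate 2 it was -0.56 (adjusted p 0.0752). Against CC, M of Ctsh was -0.11 and -0.23 (mean -0.17), and CC over AA-CJ was -0.30, and neither passed (limma adjusted p = 0.391 and 0.281).

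Ctsb, the cathepsin that acts both inside and at the carboxyl end of proteins, was below both other RNAs in all 4 CC-CJ values, at a log2 level of 15.59 to 15.71 against 16.00 and 16.07 in AA-CJ and 15.98 and 15.95 in CC. M was -0.30 and -0.48 against AA-CJ (mean -0.39, SE 0.088) and -0.34 and -0.23 against CC (mean -0.29, SE 0.088). Neither passed (limma adjusted p = 0.0655 and 0.184), and the same-dye difference of CC over AA-CJ was -0.11 (adjusted p 0.7).

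Ctsl, an endopeptidase of most cells, had 1 array out of step with the other three. M was -0.13 and 0.45 against AA-CJ (mean 0.16) and 0.27 and 0.48 against CC (mean 0.37, SE 0.144), with CC over AA-CJ at -0.21. None passed (limma adjusted p = 0.555, 0.262 and 0.629). Its 2 probes had the same sign on each array, at -0.15 and -0.11 on the array that stood apart, and centred without loess the means were -0.99 and -0.41.

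The remaining 3 genes had means between -0.15 and 0.16 in all comparisons. Ctsd, the aspartic protease, had a mean M of -0.09, -0.07 and -0.01 in CC-CJ over AA-CJ, CC-CJ over CC and CC over AA-CJ. Ctsz, a carboxypeptidase, had -0.08, -0.15 and 0.07. Ctsa, which also shields neuraminidase and beta-galactosidase from breakdown, had 0.08, 0.16 and -0.08 over 3 probes, which ranged from -0.02 to 0.13 against AA-CJ and from -0.01 to 0.26 against CC. Their adjusted p-values by limma ran from 0.391 to 0.975, and centred without loess Ctsa was at -0.98 and -0.58. Each had a well-measured probe in all RNAs.

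The probe of Ctsc lay on chromosome 1 at 144661035 to 144661094 of rn4, the build the scanner files give, and that of Ctsd on the same chromosome at 202619669 to 202619727. The kept probe of Ctss lay on chromosome 2 at 190466474 to 190466533, with its dim one at 190466683 to 190466742 and the probe of Ctsk at 190405601 to 190405660. Ctsb was read on chromosome 15 (42423613 to 42423672), Ctsh on chromosome 8 (94986941 to 94989247, a span wider than a probe, as the file gives it) and Ctsl on chromosome 17 (6290718 to 6290777 and 6293891 to 6293950). The probes of Ctsa lay between 155870436 and 155871867 on chromosome 3. The files give no position for the probe of Ctsz, and whether a probe lies in coding sequence or in a UTR was not analysed here.

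Genes around the cathepsins were mostly not called, as were most of all genes. Of all genes, 1.89% were called higher and 1.13% lower against AA-CJ, and 0.0982% and 2.25% against CC. In CC over AA-CJ the shares were 2.57% and 0.0795%. The same shares apply to the lists that follow, and nothing is read from the few calls in them. Of 12 other cathepsins 2 were measured, Ctsf (mean M -0.47, -0.27 and -0.19 in the same order) and Ctsq (0.02, 0.06 and -0.04), a placental gene with near copies for which a value is uncertain. Neither passed in any comparison (1, Ctsf, had an unadjusted p under 0.05 by limma, against AA-CJ). Of 11 inhibitors 5 were measured and 0 passed. At an unadjusted p under 0.05 there were 2 of them against AA-CJ, 3 against CC and 1 in CC over AA-CJ. Cst3, cystatin C, the main secreted inhibitor of cysteine cathepsins, had an M of -0.39 and -0.95 against AA-CJ (mean -0.67, SE 0.136, limma adjusted p = 0.0533) and -0.48 and -0.57 against CC (mean -0.52). Serpinb6a had 0.41 and 0.23 in those comparisons, Serpinb1a 0.19 and 0.15, Cst6 0.13 and 0.09, and Cstb, cystatin B, -0.05 and 0.23.

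The serine proteases that cathepsin C activates were measured for 3 of 13 names, Prtn3, Tpsab1 and Tpsb2, while the granzymes Gzma, Gzmb, Gzmc and Gzmk were not among the genes measured here. Tpsab1, a tryptase of mast cells, had an M of 0.59 and 0.40 against AA-CJ (mean 0.50, SE 0.087, limma adjusted p = 0.0407) and of -0.24 and -0.18 against CC, and CC was 0.70 above AA-CJ (adjusted p 0.0393). Prtn3 was at -0.08, -0.11 and 0.03 in the 3 comparisons. Tpsb2 was at 0.01 against AA-CJ and 0.06 in CC over AA-CJ, and was too dim in CC-CJ on the arrays against CC for a value there. Tpsab1 and Tpsb2 are near copies, so their split is uncertain.

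Among 32 measured of 36 other lysosomal genes, Grn, the precursor of granulins, passed against AA-CJ (M 0.46 and 0.38, mean 0.42, SE 0.080, limma adjusted p = 0.0477), and 0 passed in the other two comparisons (4 and 1 at an unadjusted p under 0.05). The medians of that list were 0.00, 0.02 and 0.01, beside 0.73, 0.63 and 0.10 for Ctsc. Its summed intensity was 88800 to 96300 in AA-CJ, 93800 to 97400 in CC-CJ and 89200 to 96900 in CC, with overlap among all 3 RNAs. The sorting receptors and proton pump subunits had 7 genes measured of 10, with 0 called by limma in any comparison (1, 1 and 2 at an unadjusted p under 0.05) and medians of 0.12, -0.10 and 0.16. MHC class II and its invariant chain, the substrate of cathepsin S, had 4 measured of 8 and 0 called (0, 1 and 0 at an unadjusted p under 0.05). Cd74, the invariant chain, was at 0.14, 0.26 and -0.11, RT1-Bb at 0.06, -0.04 and 0.10, RT1-Db1 at -0.07, -0.05 and -0.02 and RT1-DMa at -0.22, -0.07 and -0.15.

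**Figure D3:**
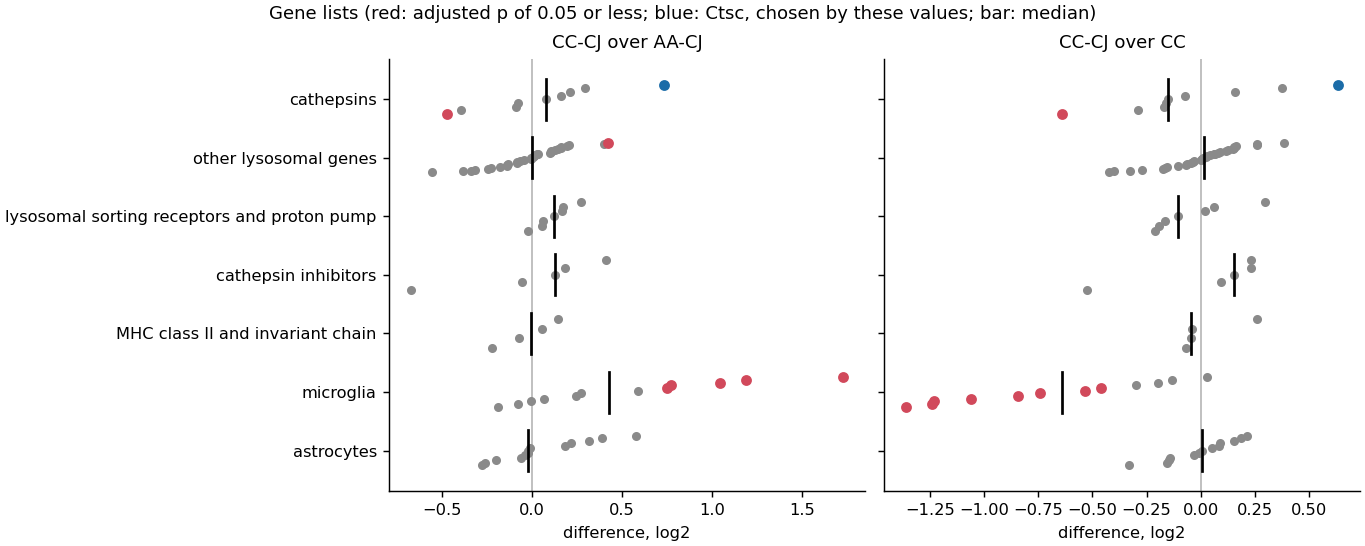
M (log2, horizontal axis) of each measured gene of 7 lists in CC-CJ over AA-CJ and CC-CJ over CC; red points passed an adjusted p of 0.05, the blue point is Ctsc, which was chosen by these values, and black bars are medians. The lysosomal list is centred near 0 (medians 0.00 and 0.02), whereas the microglial list has medians of 0.43 and -0.64.

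Markers of other cells moved between the same RNAs. Of 20 microglial markers 12 were measured, with a summed intensity of 1600 to 1720 in AA-CJ, 2190 to 2730 in CC-CJ and 4610 to 4640 in CC. Against AA-CJ 5 of the 12 were higher in CC-CJ (median 0.43), against CC 8 were lower (median -0.64), and 8 were higher in CC than in AA-CJ (median 1.11), beside 1.89%, 2.25% and 2.57% of all genes called in those directions. Aif1, Adgre1 and Csf1r passed the filter on dim probes through CC alone, where they were highest. With every channel required to be well above background the counts were 3, 3 and 3. With Agilent's log ratio 2 were called against CC, without replicate 1 of CC-CJ against AA-CJ 2 were called in that comparison, and without replicate 2 of CC-CJ against CC 5 were called in that one. Lyz2, lysozyme, had the largest value against AA-CJ, 1.73, and -1.23 against CC (limma adjusted p = 0.000777 and 0.000948). It was not well above background in AA-CJ, so it was at least 3.31-fold higher in CC-CJ. For such a bound, the mean of the brighter RNA is set against the higher, per array, of the dimmest signal well above background and the probe's own. C1qa followed with 1.19 and -1.06, Trem2 with 1.04 and -1.36, Tyrobp with 0.77 and -0.74 and Laptm5 with 0.75 and -1.24. C1qa and Trem2 were dim in AA-CJ as well, and were at least 2.28-fold and 2.03-fold higher in CC-CJ. Of the 12, 9 were above 0 against AA-CJ, 1 against CC and 11 in CC over AA-CJ. Cd14 went the other way in all 3 comparisons (-0.19, 0.03 and -0.22). Cd68 had -0.08, -0.30 and 0.22, and C1qc had -0.003, -0.13 and 0.13. Itgam, Cx3cr1, P2ry12, Spi1 and Fcgr2b were not well above background throughout any RNA.

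Ctss had the signs of the medians of the microglial list, with 0.30, -0.64 and 0.94 beside 0.43, -0.64 and 1.11. Its probe was kept through CC alone, where it was highest, so nothing is read from this likeness. With the second probe of Ctss averaged in, its values were 0.13, -0.33 and 0.46. The 13 neuronal markers had medians of 0.11, -1.45 and 1.56, with 9, 0 and 12 of them above 0. Mapt (0.63, -2.87 and 3.50) and Gap43 (2.03, -2.76 and 4.79) were among those with the signs of Ctss, as were Dcx, Tubb3, Map2, Elavl4 and L1cam. Stmn2, Nefl, Nefm and Syt1 were below 0 against AA-CJ (-0.27, -0.19, -0.07 and -0.002). The 5 genes with a symbol nearest to Ctss over the 4 arrays, Gphn, Enpp2, Rgs2, Hap1 and Ppfia2, were on none of the lists. They were named here after their values were seen, and the way they were chosen fixes their signs, so nothing is read from them. Ctsc was chosen by its values in both CC-CJ comparisons, so its place beside these lists is a description and nothing is read from it. Its 0.63 against CC lay above all 12 microglial genes (-1.36 to 0.03). Its 0.10 in CC over AA-CJ was below their median of 1.11 (range -0.22 to 2.96). Against AA-CJ its 0.73 lay inside their range (-0.19 to 1.73). Ctsc also lay outside the range of the 13 astrocyte markers, all measured, which was -0.27 to 0.58 against AA-CJ and -0.33 to 0.22 against CC, with 0 called by limma (2, 0 and 2 at an unadjusted p under 0.05) and medians of -0.02, 0.00 and 0.06. The part of each cell type in the values of Ctsc and Ctss was not tested, and in such mixed RNA fewer cells of a type and less RNA per cell cannot be told apart. The 13 neuronal markers had a summed intensity of 21100 to 22000 in CC, 8410 to 8860 in CC-CJ and 8860 to 9370 in AA-CJ. After cold jet 8 of them were below CC, with Dcx at -3.70, L1cam at -3.29, Mapt at -2.87 and Elavl4 at -2.82, and 5 exceeded AA-CJ in CC-CJ, led by Gap43 at 2.03. In CC 7 of the 13 exceeded AA-CJ. The shares of all genes called in these directions are those given for microglia, and Snap25 and Syt1 passed the filter through CC alone.

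**Figure D4:**
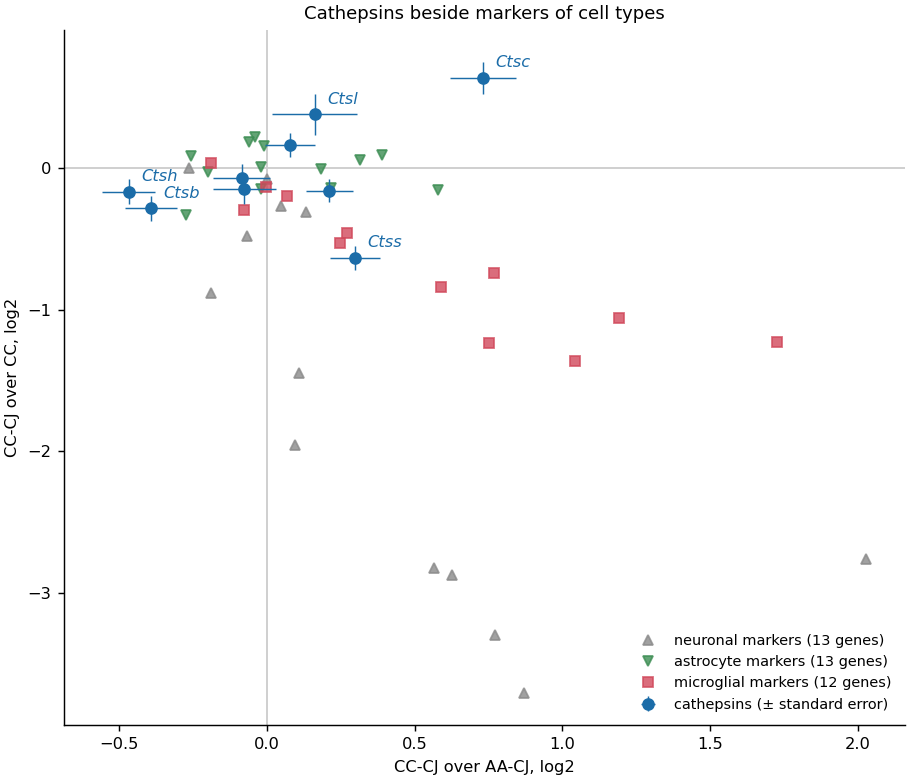
Mean M of CC-CJ over CC (vertical axis, log2) against mean M of CC-CJ over AA-CJ (horizontal axis, log2), which share the CC-CJ RNA; blue circles with SE are the 9 cathepsins, squares microglial, triangles neuronal and inverted triangles astrocyte markers. Ctsc, which was chosen by these values, lies at the upper right (0.73, 0.63). Ctss (0.30, -0.64), whose probe was kept through CC alone, lies near the microglial genes of smaller value.

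Lists of 3 further cell types were counted too. In the oligodendrocyte lineage (9 measured of 10), Sox10 was lower after cold jet than before it, at -1.12, and so was Mag, by at least 1.77-fold since it was dim in CC-CJ. Mag was kept through CC alone, where it was highest, and was also called higher in CC than in AA-CJ. Among fibroblast and meningeal genes (7 of 8), Dcn and Col1a2 were below CC in CC-CJ, at -0.77 and -0.59, and Dcn was higher in CC than in AA-CJ, at 0.66. Of 3 measured endothelial genes of 8, Kdr was higher than in AA-CJ in both co-culture RNAs, at 2.62 in CC-CJ and 2.67 in CC. The other measured ones, Cdh5 (0.25 and 0.10) and Vwf (-0.03 and 0.05), did not pass there. Pecam1, Tek, Cldn5, Flt1 and Eng were not well above background throughout any RNA. Between CC-CJ and CC Kdr had -0.05, and 0 of the 3 were called by limma or had an unadjusted p under 0.05.

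The 5 genes whose 4 M values lay nearest to those of Ctsc, by Euclidean distance among 8418 genes with a symbol, were Cttnbp2 (distance 0.288), Errfi1 (0.367), Zfand2a (0.374), Dusp5 (0.375) and Aox1 (0.445). Errfi1, a feedback inhibitor of the EGF receptor, had a mean M of 0.97 against AA-CJ and 0.57 against CC, and Dusp5, a phosphatase of ERK, 0.68 and 0.54. Cttnbp2, which binds cortactin, had 0.62 and 0.46, Zfand2a, a zinc finger gene induced by arsenite, 0.49 and 0.65, and Aox1, aldehyde oxidase, 0.80 and 0.36. All 5 were positive on all 4 arrays, which the way they were chosen fixes. None of the other cathepsins was among them.

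**Figure D5:**
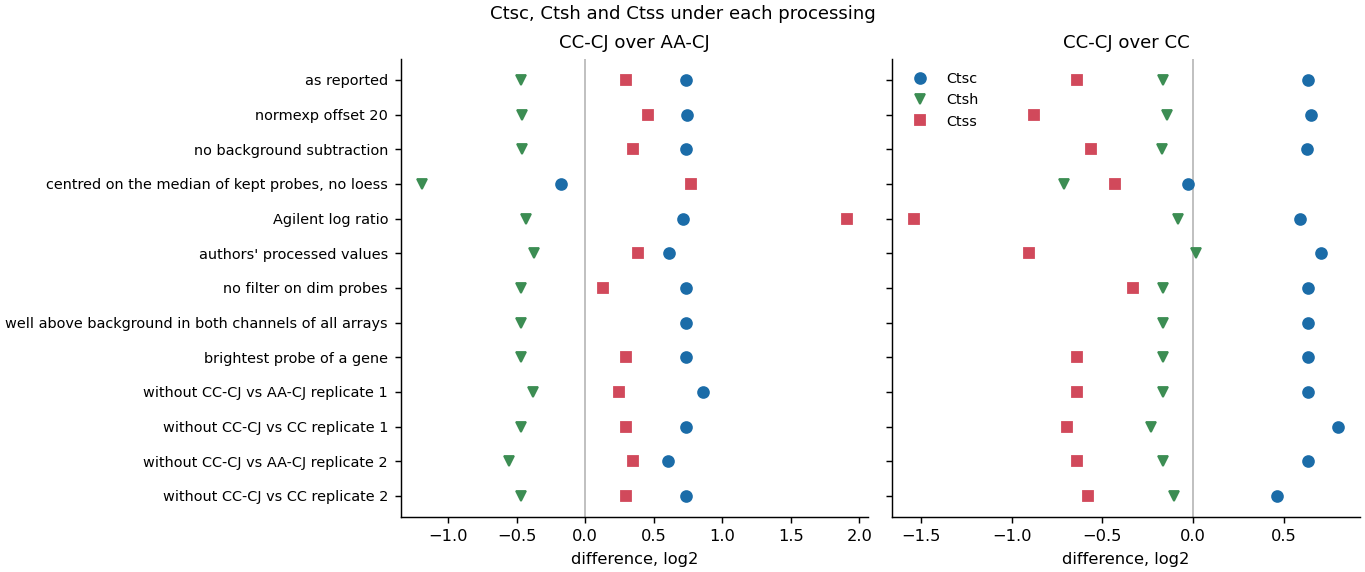
M (log2, horizontal axis) of Ctsc (circles), Ctsh (triangles) and Ctss (squares) under each processing named on the left, for CC-CJ over AA-CJ and CC-CJ over CC; Ctss has no value where its probe was not kept. Ctsc lies above 0 in every line but that without loess, where it is at -0.18 and -0.03, and Ctss lies above 0 on the left and below 0 on the right in every line.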

How the data were processed

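The data are 4 2-colour Agilent arrays of the whole rat genome, on 1 slide, with RNA of 3 kinds of culture. The authors deposited each array's spot intensities in both channels and Agilent's log10 ratio, as written by Feature Extraction 9.5.1.1 (version per the submitters' processing notes), and 1 table of normalized values. That deposited table matched log2 of Cy5 over Cy3 when set against the spots (r of -0.92 to -0.97 with the M used here, across probes, which are not independent), and its sign was turned. The methods name OLIN for it, which was not run here.

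Intensities were corrected by normexp (offset 50) and normalized by loess (span 0.3) within each array in limma 3.58.1 (R 4.3.3). M is log2 of Cy3 over Cy5. Between 121 and 179 outlier spots per array were left out. A probe was kept where some RNA group had it well above background on all its arrays, which left 24881 of 41012, and a gene's value is the mean over its kept probes. One limma model over 4 arrays gave both comparisons and their difference, with 2 residual and 4.67 prior degrees of freedom and Benjamini-Hochberg adjustment over 21376 genes. Levels are log2 intensities per channel after loess and Aquantile scaling. The steps were tested on simulated data. The number of arrays limits the precision.

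The members and the 12 gene lists were chosen with earlier results of these data known. Genes outside the cathepsins were named by a rule: every measured gene of the lists of other cathepsins, inhibitors, proteases that cathepsin C activates and MHC class II; of each other list, at most the 4 largest that passed per comparison; and the 5 genes nearest to Ctsc. Some listed markers that stood apart from those that passed were named as well. Names came from the files or, for 10835 of 16321 probes with a RefSeq accession, from RefSeq. Alternatives covered background, offset, normalization, source of the values, filter, probe choice, prior, arrays in the fit, replicate block, the limits of the methods and each array left out. Probe sequences were not used here.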

Additional observations from a re-analysis of the deposited data

How the results depend on the processing

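Centred on the median with no loess, M reversed for Ctsc (-0.18 against AA-CJ, -0.028 against CC and -0.15 in CC over AA-CJ), Ctsa (-0.98 and -0.58), Ctsl (-0.99 and -0.41) and, against AA-CJ, Ctsk (-0.38), while 8 cathepsins passed in each CC-CJ comparison among 14265 and 14650 genes of all. That setting leaves the trend of M with brightness in place. With Agilent's log ratio, Ctsd and Ctsz reversed in CC over AA-CJ (0.014 and -0.065) and 0 cathepsins passed in any comparison (3, 2 and 1 at an unadjusted p under 0.05 by limma). With the authors' values, Ctsd turned to 0.078 against AA-CJ and 0.20 in CC over AA-CJ, Ctsh to 0.016 against CC, and Ctsc and Ctsz to -0.093 and -0.0059 in CC over AA-CJ; the cause was not tested.

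The number of cathepsins passing, 2 against AA-CJ, 2 against CC and 1 in CC over AA-CJ, was 1 against AA-CJ with an offset of 20, no background subtraction, the authors' values, the replicate block or the limits of the methods, where Ctsh was lost. Against CC it was 1 with an offset of 20, no background subtraction or no filter on dim probes. It was 0 against CC and in CC over AA-CJ with the stricter filter, where every channel had to be well above background and Ctss was not kept (3 and 1 at an unadjusted p under 0.05), and 0 in CC over AA-CJ with no filter (3 unadjusted). Each array left out in turn gave 0 to 2, 0 to 2 and 1 to 1. Without either array of CC-CJ against AA-CJ 0 passed there (4 each unadjusted), and without replicate 2 of CC-CJ against CC 0 passed there (3 unadjusted).

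With an array left out, values crossed 0 for Ctsd (-0.21 to 0.035, -0.15 to 0.007 and -0.13 to 0.11 in the 3 comparisons), Ctsz (-0.25 to 0.094 against AA-CJ, -0.098 to 0.24 in CC over AA-CJ), Ctsl (-0.13 to 0.45 against AA-CJ, -0.51 to 0.079 in CC over AA-CJ) and Ctsc (-0.070 to 0.27 in CC over AA-CJ). Deviations of M of same-numbered arrays correlated at -0.11 over 21376 genes, which is 1 value since the 2 pairs mirror each other, against 0.465 for CC-CJ levels alone, and no source used here states that numbers pair the arrays. The replicate block gave 1, 2 and 1 cathepsins and 164, 296 and 286 of all genes, against 645, 502 and 567 without it. Crossed pairing, added after the data were seen, gave 3, 2 and 1 cathepsins and 1464, 840 and 825 of all genes. Over all alternatives, 363 values of single cathepsins kept sign and side of the threshold, 20 were weaker, 11 stronger and 26 reversed. Fits with a trend, a block or only the arrays of a comparison leave M as it was, and some alternatives are the same fit. The count of 363 therefore does not measure robustness.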
